A study of Mus musculus with 6 samples.

Results

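Transcript levels of 10 genes of bone morphogenetic protein (BMP) signalling and its Id targets were measured by RNA-seq in mouse oligodendrocyte progenitor cells (OPCs), the dividing precursors of the cells that make myelin. The genes were taken by symbol and are the ligand gene Bmp4, the receptor genes Bmpr1a and Bmpr2, the inhibitor genes Smad6, Smad7 and Bambi, and the target genes Id1, Id2, Id3 and Id4. All 10 were among the 24421 genes listed and among the 15906 tested. The knockout group held 3 libraries from C57BL/6J mice with floxed Prrc2b alleles and Olig2-Cre, and the control group held 3 libraries from mice with the floxed alleles and no Cre. Cells of both groups came from the cortex at postnatal day 4, were selected by panning with GalC and then O4 antibodies, and were grown in a proliferation medium. The listed additives of that medium include PDGF-AA, bFGF, CNTF, NT3, insulin and forskolin, and no BMP. Olig2-Cre acts in cells that express Olig2, or did so earlier, which need not all be of the oligodendrocyte lineage. As the control libraries carried no Cre, an effect of the Cre allele and an effect of Prrc2b loss cannot be told apart. The comparison asks how transcripts differ when Prrc2b, which encodes an RNA-binding protein of the PRRC2 family, is targeted in this lineage. Whether the replicates of a group were separate animals is not stated in the labels, so a p-value reflects the spread of these libraries alone, which may be technical.

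BMP ligands bind a complex of type I receptors such as BMPR1A and the type II receptor BMPR2. The activated type I receptor phosphorylates SMAD1, SMAD5 and SMAD9, which enter the nucleus with SMAD4 and switch on target genes, among them the Id genes and the feedback inhibitors Smad6, Smad7 and Bambi. ID proteins have a helix-loop-helix domain but no DNA-binding basic region, and they hold E-proteins and their partners away from DNA. In rodent OPC cultures, BMP is known to oppose oligodendrocyte differentiation and to favour astrocyte-like cells, and Id2 and Id4 are known to restrain differentiation.

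Promoter sequences of Bmp4, Smad6 and Id4 are shown because Id4 alone of the 10 genes passed a test between the groups, and its window can be set beside those of a ligand gene and a feedback inhibitor gene whose windows, like that of Id4, lie outside annotated exons. RefSeq promoters on GRCm38.p6 were matched for 7 of the 10 genes. Each window covers the 250 bases before the RefSeq transcript start, 5′ to 3′ on the gene's strand. In 4 of the 7 genes (Bmpr1a, Bmpr2, Id2 and Id3) GENCODE places a start further upstream and the window overlaps its exons, so these are not printed. For the genes shown, the GENCODE start is the same for Bmp4 and Smad6 and lies 112 bases further downstream for Id4. Capitals mark GGCGCC, a GC-rich motif that receptor-activated SMADs are known to bind in BMP-responsive elements.
Bmp4, chr14:46390670-46390919, minus strand: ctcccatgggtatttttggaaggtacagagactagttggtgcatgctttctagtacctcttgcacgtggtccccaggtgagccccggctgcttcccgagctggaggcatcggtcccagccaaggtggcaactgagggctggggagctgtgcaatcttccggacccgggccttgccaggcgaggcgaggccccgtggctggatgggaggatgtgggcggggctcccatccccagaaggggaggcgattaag
Smad6, chr9:64022060-64022309, minus strand: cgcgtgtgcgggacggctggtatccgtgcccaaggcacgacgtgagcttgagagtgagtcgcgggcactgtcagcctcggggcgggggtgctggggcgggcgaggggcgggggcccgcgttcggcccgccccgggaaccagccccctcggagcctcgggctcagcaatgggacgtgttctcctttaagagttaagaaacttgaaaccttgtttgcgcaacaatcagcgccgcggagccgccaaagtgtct
Id4, chr13:48260866-48261115, plus strand: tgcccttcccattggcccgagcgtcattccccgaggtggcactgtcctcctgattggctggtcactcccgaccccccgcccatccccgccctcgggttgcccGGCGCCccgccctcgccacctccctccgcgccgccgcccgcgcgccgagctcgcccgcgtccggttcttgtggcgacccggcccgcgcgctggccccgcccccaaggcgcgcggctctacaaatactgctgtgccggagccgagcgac
GGCGCC, which reads the same on both strands, began 148 bases before the RefSeq start of Id4 and was not among the letters of the Bmp4 and Smad6 windows. Of the windows not printed, those of Id2, Bmpr1a and Bmpr2 held it, 231, 198 and 105 bases before the RefSeq start. Of 32851 promoter windows of the same length, 9.59% held it. These windows are rich in G and C, at 63.2% in Bmp4, 66.8% in Smad6 and 75.6% in Id4, against a median of 52.4% over all windows. The palindrome GTCTAGAC, which the DNA-binding domain of Smads is known to bind, reads the same on both strands and does not overlap GGCGCC. It was in 0.167% of all windows and was not among the letters of the 7 windows. A match is a description of the letters and not a measured binding site.

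The libraries were of similar depth, with 26015604 to 28114968 gene counts each. Levels are given as CPM, each count divided by the library total of gene counts on a common scale, with TMM factors that line up the bulk of genes between libraries. Prrc2b itself stood at 649, 824 and 758 CPM in knockout libraries 1 to 3 and at 933, 1111 and 926 CPM in control libraries 1 to 3, so the groups did not overlap. Deviations from the group mean went together between libraries of the same number (correlation across genes 0.778, 0.751 and 0.726 for numbers 1, 2 and 3), so same-numbered libraries were treated as pairs. Differences are therefore given mainly from edgeR's quasi-likelihood test with the number as a block, and for some genes also from the same test with genotype alone. Where no fit is named, a change given with its SE is from the blocked test. With genotype alone edgeR called 0% of the 15906 genes (0) at a 0.05 threshold on the adjusted p, with 274 (1.72%) at an unadjusted p under 0.05, while DESeq2 called 20 (0.126%) and limma-voom 0. With the block edgeR called 604, or 3.80% of genes, 250 higher (1.57%) and 354 lower (2.23%) in the knockout. That balance turned to 271 higher and 231 lower with library totals, to 253 and 200 with a GC correction, and to 276 and 168 without pair 1. The blocked fold change of Prrc2b was -0.41 on the log2 scale (SE 0.06, adjusted p = 0.00688 in edgeR). Its mean in the knockout was 0.751 of that in the control, so most of its counts remained. Counts per gene do not tell whether the remaining transcripts were intact or from which cells they came. OPC markers were present in every library. The 10 markers fixed for them, which include Pdgfra, Cspg4 and Sox10, summed to 2729 to 5432 CPM in knockout and 2748 to 4644 CPM in control libraries. Ptprz1 alone held 2242 of the mean sum of 4076 CPM in knockout and 1975 of 3783 CPM in control libraries. With the block 0 of the 10 passed, and 5 were above 0 and 5 below. Those below were Olig2 at -0.50, Nkx2-2 at -0.35, Sox10 at -0.25, Cspg4 at -0.0085 and Olig1 at -0.0030. Those above reached 0.18, for Ptprz1.

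Of the 10 BMP and Id genes, 0 were called with genotype alone by edgeR, DESeq2 or limma-voom, and their unadjusted edgeR p-values ran from 0.154 to 0.886. With the block 1 of the 10, Id4, was lower in the knockout and 0 were higher. As 3.80% of all genes were called with the block, a single call among 10 genes is close to that background. Their median blocked log2 fold change was 0.03, and that of all genes tested was 0.00. In 1 of the 10 genes, Bambi, the 2 groups did not overlap, as was seen in 6.34% of all genes tested. In bulk samples, fewer cells of a type and less RNA per cell cannot be told apart, which holds for every level below.

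**Figure D1:**
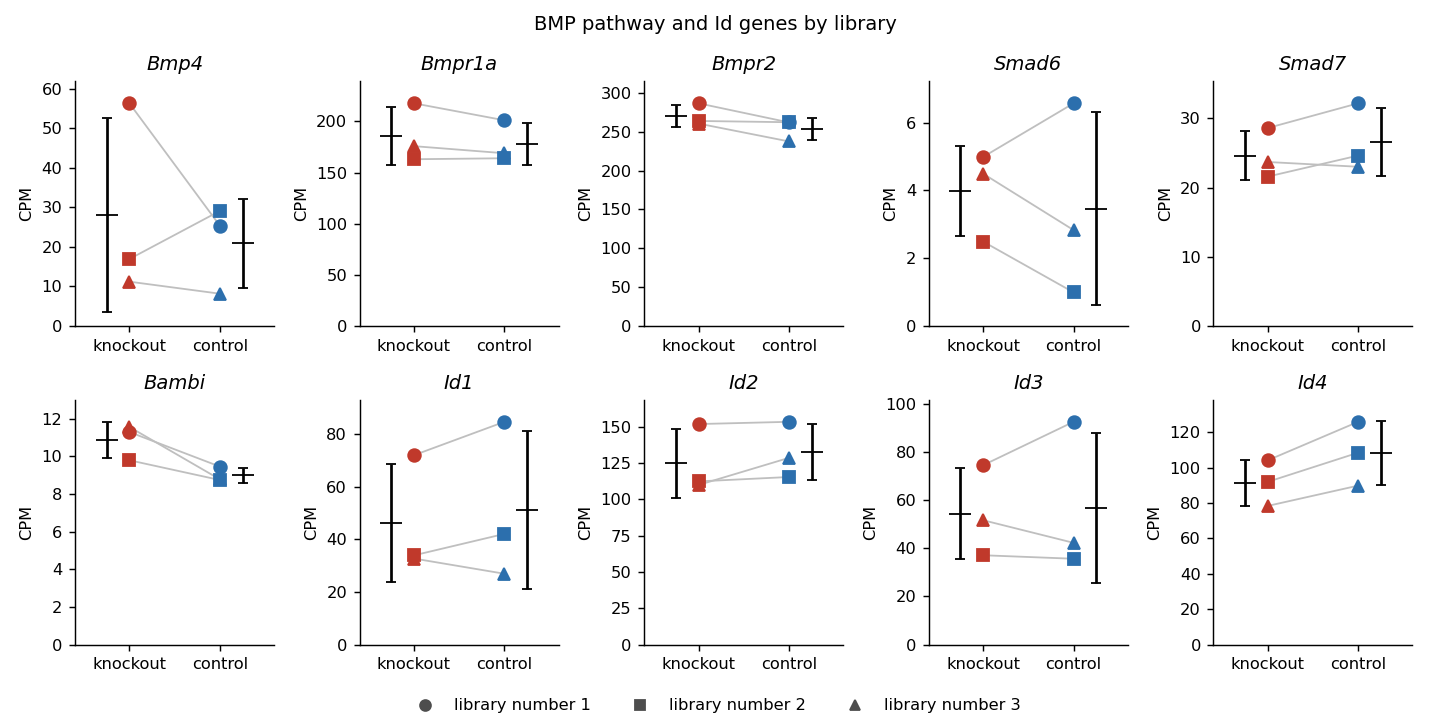
CPM of the 10 genes (y axis) in each knockout and control library (x axis). Symbols mark the library number, grey lines join libraries of the same number, and black bars give the group mean ± SD (n = 3). Id4 is lower in the knockout library of each number, Bambi is higher, and the levels of Id1 and Id3 are set apart mainly by the high libraries numbered 1.

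Bmp4 encodes the BMP ligand most often used to block OPC differentiation in culture, and it is also known as a transcript of differentiating oligodendrocyte precursors. It lies on chromosome 14 of GRCm38 from 46383520 to 46390669, on the minus strand. Its level was 56.3, 16.9 and 11.2 CPM in knockout libraries 1 to 3, against 25.4, 29.1 and 8.17 CPM in control libraries 1 to 3. The groups overlapped, knockout library 1 was the highest of all 6, and libraries numbered 3 were the lowest in both groups. The ratio of knockout to control was 2.22 for number 1, 0.582 for number 2 and 1.37 for number 3, so the pairs did not share a direction. The log2 fold change was 0.43 with genotype alone (95% interval -1.26 to 2.12, adjusted p = 1.00 in edgeR) and 0.29 with the block (SE 0.29, 95% interval -0.36 to 0.93, adjusted p = 0.665 in edgeR). Without pair 2, the one with the opposite direction, the blocked change was 0.84 (SE 0.16, adjusted p = 0.0170 in edgeR, where 521 of 16046 genes were called). The pairs left there share a direction by that choice, so this call is no sign of a rise. Without pair 1 the blocked change was -0.20 (SE 0.23, adjusted p = 0.783 in edgeR). Within a group, the highest library stood at 5.02 times the lowest in the knockout and at 3.56 times the lowest in the control, the widest spread of the 10 genes in the knockout.

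The receptor genes differed little between the groups. Bmpr1a, which encodes a type I receptor with kinase activity, had 218, 163 and 176 CPM in knockout libraries 1 to 3 and 201, 164 and 169 CPM in control libraries 1 to 3. The groups overlapped, and the library numbered 1 was the highest in each. The blocked log2 fold change was 0.05 (SE 0.04, 95% interval -0.04 to 0.15, adjusted p = 0.533 in edgeR), and as a ratio the interval ran from 0.975 to 1.11. Bmpr2, which encodes the type II receptor shared by most BMP ligands, had 286, 264 and 260 CPM in knockout libraries and 262, 262 and 237 CPM in control libraries. It was higher in the knockout in all 3 pairs, as were 19.6% of all genes tested, while the groups overlapped. Its blocked change was 0.09 (SE 0.04, adjusted p = 0.258 in edgeR). Bmpr1a lies on chromosome 14 (34410734 to 34503341, minus strand) and Bmpr2 on chromosome 1 (59763400 to 59879014, plus strand).

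Smad6 and Smad7 encode the inhibitory Smads, which block receptor signalling, Smad6 mainly that of BMP and Smad7 that of both BMP and TGF-β. Smad6 had the fewest counts of the 10 genes, with 137, 70 and 119 counts in knockout libraries 1 to 3 and 178, 26 and 80 counts in control libraries 1 to 3. That amounted to 4.99, 2.49 and 4.50 CPM in knockout and 6.57, 0.992 and 2.83 CPM in control libraries. The libraries numbered 1 were the highest and those numbered 2 the lowest in each group, and the groups overlapped. Its blocked log2 fold change was 0.43 (SE 0.31, adjusted p = 0.522 in edgeR), with a 95% interval as a ratio of 0.833 to 2.19, which takes in no difference as well as a doubling. The blocked change was 0.96 without pair 1 and 0.10 without pair 2, and it passed in neither. Smad7 had 28.6, 21.6 and 23.7 CPM in knockout and 32.2, 24.6 and 23.0 CPM in control libraries, with overlapping groups. Its blocked change was -0.11 (SE 0.09, 95% interval -0.31 to 0.10, adjusted p = 0.607 in edgeR). Smad6 lies on chromosome 9 (63953076 to 64022059, minus strand) and Smad7 on chromosome 18.

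Bambi encodes a membrane protein that resembles a type I receptor without the kinase and dampens BMP and TGF-β signalling. It had 11.3, 9.79 and 11.6 CPM in knockout libraries 1 to 3 and 9.45, 8.74 and 8.77 CPM in control libraries 1 to 3. Every knockout library lay above every control library, and the ratios by number were 1.19, 1.12 and 1.32. The log2 fold change was 0.28 with genotype alone (SE 0.17, unadjusted p = 0.154) and 0.27 with the block (SE 0.13, 95% interval -0.02 to 0.57). It passed neither test (adjusted p = 1.00 in edgeR with genotype alone and 0.311 with the block). Bambi lies on chromosome 18, and the files list a processed pseudogene of it, Bambi-ps1, at 0.581 CPM in knockout and 0.546 CPM in control libraries. The sources used here do not give how read pairs matching both copies were counted.

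Id4 was the gene of the 10 with a call, and a modest one. Its level was 104, 92.0 and 78.3 CPM in knockout libraries 1 to 3, against 126, 108 and 89.8 CPM in control libraries 1 to 3. Both groups ran in the same order of numbers and overlapped. The knockout library was the lower one of each number, as for 20.9% of all genes tested. The ratios of knockout to control were alike, at 0.827, 0.848 and 0.872. With the block Id4 fell by 0.24 on the log2 scale (SE 0.05, 95% interval -0.35 to -0.12, adjusted p = 0.0331 in edgeR), or to between 0.785 and 0.917 of the control level. With genotype alone the change was -0.24 (SE 0.16, adjusted p = 1.00 in edgeR). The blocked call was kept with DESeq2 (adjusted p = 0.0227, where 4.84% of genes were called), limma-voom (adjusted p = 0.0245, where 4.48% were called) and a correction for transcript GC content (adjusted p = 0.0274 in edgeR), and lost with scaling by library totals (0.0574), among genes of at least 5 CPM (0.0685) and without pair 1 (0.131), 2 (0.0804) or 3 (0.101). In those 5 settings the fold change itself stayed between -0.25 and -0.21. Id4 lies on chromosome 13 (48261228 to 48266026, plus strand). Its exons share 82 bases with the opposite-strand gene A330033J07Rik, which stood at 2.77 CPM in knockout and 3.56 CPM in control libraries, and the sources used here do not give whether the counting used strand.

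Id2 had the highest mean of the Id genes in CPM and per length, although per length its libraries overlapped those of Id1. In the control group they also overlapped those of Id3 per length and those of Id4 in CPM. It had 152, 112 and 110 CPM in knockout libraries 1 to 3 and 153, 115 and 129 CPM in control libraries 1 to 3. It was lower in the knockout in all 3 pairs, as were 20.9% of all genes tested, with ratios of 0.990, 0.974 and 0.855. The groups overlapped, and the blocked log2 fold change was -0.09 (SE 0.05, 95% interval -0.21 to 0.03, adjusted p = 0.412 in edgeR). Id2 lies on chromosome 12 (25093799 to 25097140, minus strand).

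Id1 and Id3, the Id genes that respond most directly to BMP in many cell types, differed far more between libraries of a group than between groups. Id1 had 72.0, 33.9 and 32.7 CPM in knockout libraries 1 to 3 and 84.7, 42.1 and 26.9 CPM in control libraries 1 to 3. Id3 had 74.4, 37.1 and 51.6 CPM in knockout libraries 1 to 3 and 92.5, 35.6 and 42.2 CPM in control libraries 1 to 3. For both genes the libraries numbered 1 were the highest of their group by a wide margin, and the groups overlapped. The highest library stood at 2.2 times the lowest in the knockout and 3.15 times in the control for Id1, and at 2.01 and 2.60 times for Id3. Over the tested genes with a count in every library the median was 1.39 in the knockout and 1.40 in the control. Ratios of knockout to control by number were 0.850, 0.806 and 1.21 for Id1 and 0.805, 1.04 and 1.22 for Id3, without a shared direction. The blocked log2 fold change was -0.10 for Id1 (SE 0.11, 95% interval -0.33 to 0.14, adjusted p = 0.700 in edgeR) and 0.01 for Id3 (SE 0.10, 95% interval -0.22 to 0.23, adjusted p = 0.983 in edgeR). With genotype alone the intervals were wider, from -1.32 to 1.02 for Id1 and from -1.06 to 0.94 for Id3. Id1 lies on chromosome 2 (152736251 to 152737410, plus strand) and Id3 on chromosome 4 (136143497 to 136145755, plus strand).

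**Figure D2:**
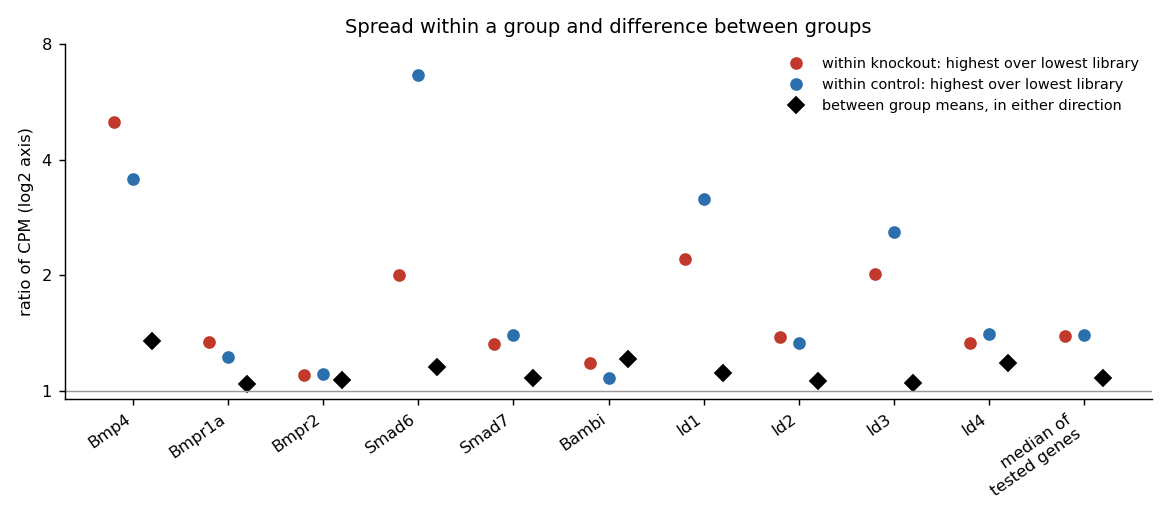
Ratio of CPM on a log2 axis for each of the 10 genes and, at the right, the median over tested genes. Red and blue points give the highest over the lowest library within the knockout and within the control group, and black diamonds give the fold between group means in either direction. Only for Bambi does the diamond lie above both points, and for Bmp4, Smad6, Id1 and Id3 the spread within each group reaches 2-fold or more.

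The weight of the library number was set beside that of genotype by dividing the sum of squares of log2(CPM + 0.5) over the 6 libraries. The number took 94.2% for Id3, 94.4% for Bmpr1a and 88.7% for Id2, and genotype took 0.01%, 3.02% and 5.55% of the same genes. Over all tested genes the median share was 77.8% for the number and 6.61% for genotype. Bambi ran the other way, with 18.2% for the number and 72.7% for genotype. For Id4 genotype took 29.2% and the remainder, which neither term covers, 0.52%. The genotype share of Bmpr2, which was not called, was larger than that of Id4, at 33.3%, with a remainder of 13.5%. The number has more levels than genotype, so its share tends to be larger even with no effect of either. These shares are descriptions, and with 2 libraries per number they carry no test.

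**Figure D3:**
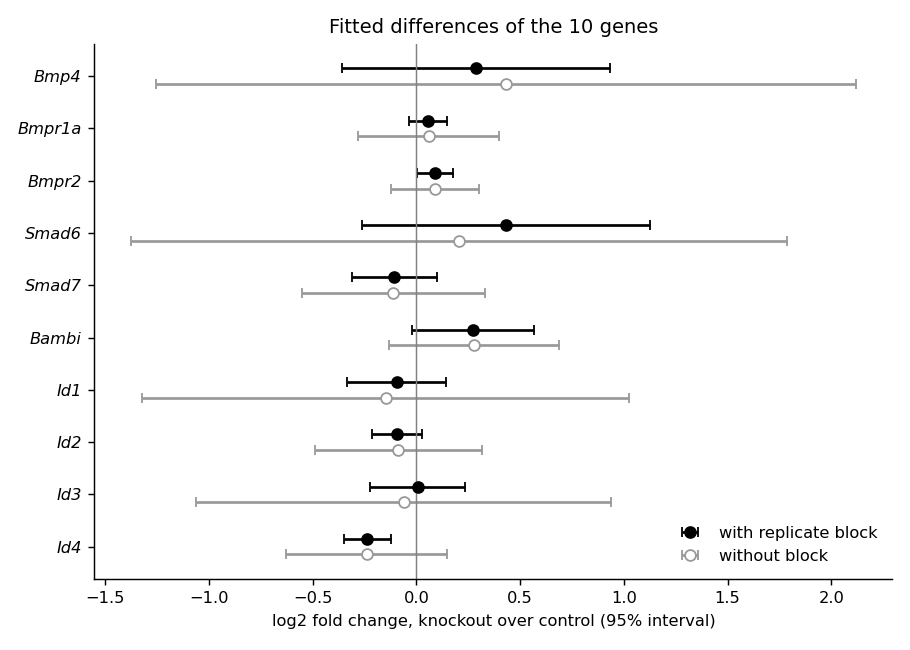
Log2 fold change of knockout over control for the 10 genes (x axis) with 95% intervals, from edgeR with the replicate block (black) and with genotype alone (grey). The block narrows the interval of each of the 10 genes, and among the blocked intervals those of Id4 and Bmpr2 leave out 0 before adjustment for the number of genes tested.

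Levels can be compared between genes only per length, so CPM was divided by the annotated exonic length in kilobases (RPKM). Id2 had the highest mean, at 51.1 ± 9.65 RPKM in knockout and 54.3 ± 7.91 RPKM in control libraries (SD, n = 3 each). Id1 followed at 39.8 ± 19.3 and 44.2 ± 25.8 RPKM in knockout and control libraries, a spread within which Id2, Id3, Bmpr1a and Id4 cannot be ordered against it. Id3 had 30.4 ± 10.5 RPKM in knockout and 31.7 ± 17.4 RPKM in control libraries, close to Bmpr1a at 29.2 ± 4.50 RPKM in knockout and 28.0 ± 3.17 RPKM in control libraries. Id4 had 23.8 ± 3.35 RPKM in knockout and 28.1 ± 4.69 RPKM in control libraries. Bmpr2 was below Bmpr1a and Id4, at 15.0 ± 0.789 and 14.1 ± 0.789 RPKM in knockout and control libraries, and could not be ordered against Bmp4, at 12.5 ± 10.9 and 9.29 ± 4.97 RPKM. Smad7 (5.44 ± 0.796 RPKM in knockout, 5.88 ± 1.08 RPKM in control), Bambi (2.14 ± 0.188 and 1.77 ± 0.0793 RPKM) and Smad6 (1.25 ± 0.413 and 1.08 ± 0.887 RPKM) had the lowest means, though within their spreads Smad7 cannot be ordered against Bmp4 in either group, nor Smad6 against Bambi in the control. Of these 10 genes, Smad6, Smad7 and Bambi thus had lower means per length than Bmpr1a, Bmpr2 and the Id genes in both groups. That order does not extend to all inhibitor and receptor genes of the pathway. The inhibitor gene Ski stood at 47.6 RPKM in knockout and 51.0 RPKM in control libraries, and the receptor gene Bmpr1b at 6.37 and 5.26 RPKM.

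Among other cell types, markers of astrocytes, endothelium, pericytes and fibroblasts, and neurons moved with the library number and with genotype. Some of those cells also express Id1, Id3 and Smad6. The 10 astrocyte markers summed to 3183, 1705 and 2600 CPM in knockout libraries 1 to 3 and to 2716, 1485 and 2296 CPM in control libraries 1 to 3. In both groups that sum, like the OPC sum and like Id3, Smad6 and Bmpr1a in CPM, was highest in number 1 and lowest in number 2. With the block 4 of the 10 astrocyte markers rose and 0 fell, Gfap by 0.55, Aqp4 by 0.33, Gja1 by 0.32 and Slc1a2 by 0.20 on the log2 scale. Slc1a2 lost its call with a GC correction (adjusted p = 0.0573 in edgeR) and without any one pair (0.0592 to 0.155). The 14 endothelial markers summed to 160, 59.4 and 406 CPM in knockout libraries 1 to 3 and to 76.7, 26.7 and 130 CPM in control libraries 1 to 3. With the block 10 of these 14 rose and 0 fell, from 1.09 for Eng to 2.16 for Ly6c1, with Pecam1, Cdh5, Kdr, Flt1, Tek, Tie1, Cldn5 and Abcb1a between. Without pair 3 the calls of Eng, Pecam1, Tek, Ly6c1 and Abcb1a were lost, with changes of 0.92 for Pecam1 to 1.87 for Ly6c1. The 10 pericyte and fibroblast markers were all above 0 with the block, and 2 of them rose, Rgs5 by 0.49 and Vtn by 0.42. The 10 neuron markers moved the other way. They summed to 2000, 3051 and 2012 CPM in knockout libraries 1 to 3 and to 2431, 3455 and 2397 CPM in control libraries 1 to 3. The neuron sum was lower in the knockout of each number and highest in number 2 of both groups. With the block all 10 were below 0, 5 fell and 0 rose, namely Neurod2 by 0.69, Dlx2 by 0.44, Elavl3 by 0.28, Dlx1 by 0.24 and Tubb3 by 0.22 on the log2 scale. The 8 microglia markers summed to 10.5, 212 and 177 CPM in knockout and 11.8, 215 and 155 CPM in control libraries, lowest in number 1. With the block 0 of these 8 passed, and 5 were above 0 and 3 below. Of the markers of these 5 cell types 0 were at 0 in all libraries. The part of these cells in the levels of the 10 genes was not tested.

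**Figure D4:**
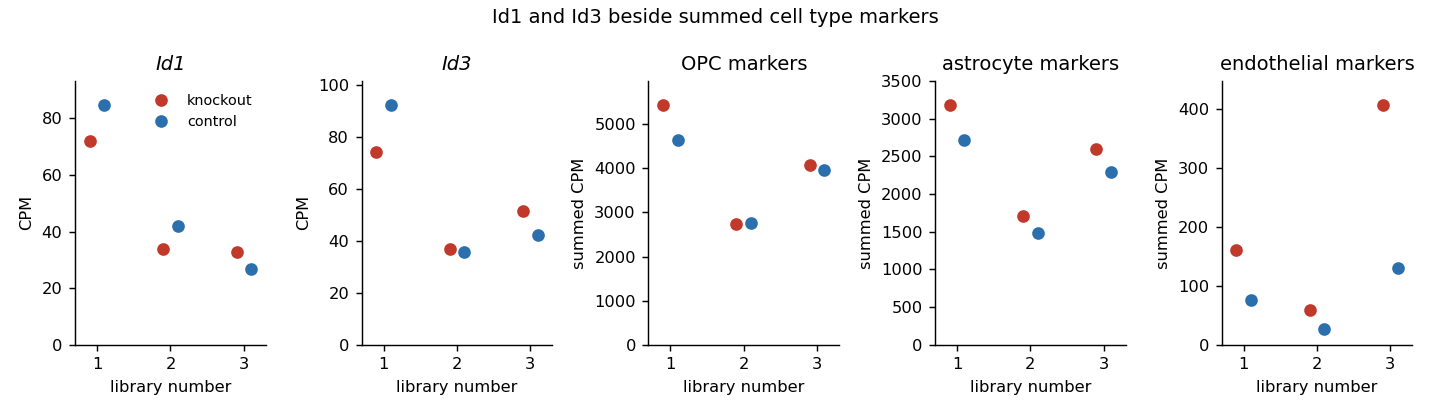
CPM of Id1 and Id3 and summed CPM of the OPC, astrocyte and endothelial markers (y axes) by library number (x axis), with knockout in red and control in blue. Id1, Id3, OPC and astrocyte values are highest in number 1, and endothelial values are highest in number 3 and higher in the knockout library of every number.

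The other genes of the pathway were read from lists by role. Of 68 genes in 6 lists of ligands, receptors, Smads, secreted antagonists, intracellular inhibitors and targets, 61 were tested. With the block 2 of them rose in edgeR, 1 fell and 58 did not pass, against 3.80% of all 15906 genes called in either direction. The median blocked log2 fold change of the 61 was 0.00, as it was over all genes. With genotype alone 0 of the 61 passed with edgeR.

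The genes that rose were Eng and Tgfbr3, which encode co-receptors. Eng encodes endoglin, a co-receptor of vessel endothelium that was also among the endothelial markers above. It had 11.9, 7.05 and 43.6 CPM in knockout libraries 1 to 3 and 6.31, 3.17 and 19.2 CPM in control libraries 1 to 3, higher in the knockout of each number while the groups overlapped. Its blocked log2 fold change was 1.09 (SE 0.12, adjusted p = 0.00294 in edgeR), and it lost the call without pair 3 (adjusted p = 0.0591 in edgeR). Tgfbr3, which encodes betaglycan, had 7.47, 4.17 and 17.7 CPM in knockout and 3.91, 2.90 and 8.49 CPM in control libraries, with a blocked change of 0.86 (SE 0.17, adjusted p = 0.0255 in edgeR). It lost the call without pair 1 (adjusted p = 0.0611 in edgeR) or pair 3 (0.240). Acvrl1, a type I receptor gene of endothelium, had a similar size of change at 1.01 (SE 0.24) and its call depended on the setting. It did not pass in edgeR with the block (adjusted p = 0.0551), but with the block it passed with DESeq2 (0.0245), limma-voom (0.0210), no filter on low counts (0.0104 in edgeR), a GC correction (0.0484) and without pair 1 (0.0490) or 2 (0.0133). Without pair 3 its change was 0.60 (adjusted p = 0.437 in edgeR). All 3 were highest in the libraries numbered 3, as was the endothelial sum, and the part of endothelial cells in these changes was not tested. Bmpr1b, the type I receptor gene closest to Bmpr1a, was at 0.34 (SE 0.11, adjusted p = 0.119 in edgeR), and in edgeR 9 of 11 receptor and co-receptor genes, Acvrl1 among them, did not pass.

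**Figure D5:**
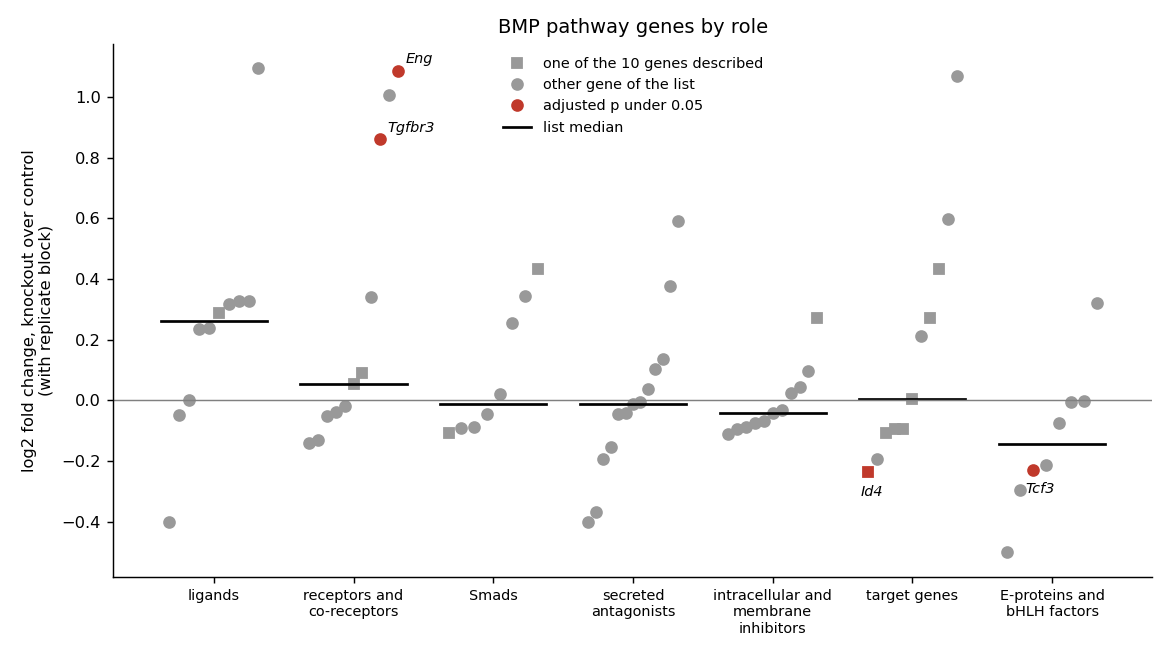
Blocked log2 fold change of knockout over control (y axis) for each tested gene of 7 lists by role (x axis). Squares mark the 10 genes described above, red marks an adjusted p under 0.05 and black lines give list medians. Eng and Tgfbr3 lie above 0 and Id4 and Tcf3 below it, and most other points lie near 0.

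Of the 15 ligand genes 10 were tested and 0 passed. Their median blocked log2 fold change was 0.26, against 0.00 over all genes, and 8 of the 10 were above 0. Bmp7, a ligand gene expressed in choroid plexus and meninges, was at 0.24 (SE 0.10, adjusted p = 0.238 in edgeR), Bmp6 at 0.24 (SE 0.13), Bmp2 at 0.32 (SE 0.18) and Bmp8b, below 1 CPM on average in each group, at 1.09 (SE 0.52). The 10 choroid plexus and ependymal markers summed to 1031, 834 and 2795 CPM in knockout libraries 1 to 3. In control libraries 1 to 3 they summed to 432, 361 and 1913 CPM, lower than in the knockout of each number. Most of each sum was Ttr, at 812, 670 and 2571 CPM in knockout and 247, 290 and 1746 CPM in control libraries. Foxj1, Ccdc153, Dynlrb2 and Tmem212 were highest in number 1 in both groups, and the other markers of the list in number 3, so the sum does not track them all. With the block all 10 were above 0, 6 rose and 0 fell, with a median log2 fold change of 0.96. The part of these cells in the ligand levels was not tested. Of 8 Smad genes 0 passed. The shared partner gene Smad4 was at -0.09 (SE 0.04, adjusted p = 0.237 in edgeR), and Smad2 and Smad3, which act downstream of TGF-β and activin, were at -0.09 (SE 0.04) and 0.25 (SE 0.12). Smad3 passed without pair 2, the pair in which the knockout was lower, at 0.45 (adjusted p = 0.0319 in edgeR). Without pair 1 its change was 0.09. Smad9, the scarcest receptor-activated Smad gene of the BMP branch, was at 0.35 (SE 0.22).

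Of 13 tested genes of secreted antagonists and modulators 0 passed. Nog encodes noggin, which binds BMP4 and keeps it from its receptors. It had 10.5, 6.76 and 7.21 CPM in knockout libraries 1 to 3 and 17.6, 7.17 and 8.49 CPM in control libraries 1 to 3, lower in the knockout of each number, at -0.37 with the block (SE 0.16, adjusted p = 0.263 in edgeR). Sostdc1 was at 0.59 (SE 0.20, adjusted p = 0.148 in edgeR), Fstl1 at 0.14 (SE 0.07) and Bmper at -0.15 (SE 0.09). Of 11 intracellular and membrane inhibitors 0 passed, with the Smad co-repressor genes Ski at -0.09 (SE 0.04) and Skil at 0.10 (SE 0.04), Tob2 at -0.09 (SE 0.05), and Zeb2, whose product binds Smads and is required for myelination in mice, at -0.08 (SE 0.04). Of 11 target genes Id4 alone passed. Among the other targets, Hey1, a basic helix-loop-helix repressor gene, was at 0.21 (SE 0.07, adjusted p = 0.131 in edgeR), and Msx1, Msx2 and Atoh8, of low level, were at 0.60 (SE 0.40), 1.07 (SE 0.58) and -0.19 (SE 0.21).

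The factors that ID proteins bind or act beside were read as a list of 8 genes. With the block 1 fell and 7 did not pass, where 3.80% of all genes were called and 2.23% fell. A single call among 8 genes is close to that background. Their median blocked log2 fold change was -0.14, against 0.00 over all genes. Tcf3, which encodes the E-proteins E12 and E47, had 176, 145 and 127 CPM in knockout libraries 1 to 3 and 213, 180 and 136 CPM in control libraries 1 to 3. The groups overlapped, and the order of numbers was the same in each. The knockout was the lower of each number, as for Id4 and for 20.9% of all genes tested. Tcf3 fell by 0.23 (SE 0.05, adjusted p = 0.0373 in edgeR), but after correction for GC content its change was -0.08 (SE 0.05) and the call was lost (adjusted p = 0.442 in edgeR). It also lost the call without pair 1 (adjusted p = 0.123 in edgeR) or 2 (0.104), with library totals (0.0551) and among genes of at least 5 CPM (0.0617). Olig2, whose locus drives the Cre, was at -0.50 (SE 0.12, adjusted p = 0.0533 in edgeR). It passed without pair 1, at -0.72 (adjusted p = 0.000501 in edgeR), and with no filter on low counts (0.00366), and was at -0.29 without pair 2. Hes1, a Notch target gene, was at 0.32 (SE 0.09, adjusted p = 0.0957 in edgeR).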

How the data were processed

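Counts per gene symbol, as deposited, were whole numbers of 1 library per table and were not normalized by the authors. Per the labels' protocols, poly(A) RNA was made into dUTP-marked paired-end libraries. Named without roles in the submitters' processing notes are HISAT2 (2.2.1), HTSeq (0.12.4), the tool DESeq2 (1.26.0) and build mm10. The annotation used and the strand setting are not stated. The 5 summary rows per table that name no gene were left out, on average 20.8% (knockout) and 19.7% (control) of read pairs for those in no gene. Unused per-sample columns numbered 0.

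Genes passing edgeR's expression filter (15906 of 24421) received TMM scaling factors. The test was edgeR's quasi-likelihood test (edgeR version 4.0.16 under R version 4.3.3), two-sided, knockout over control, with genotype as sole term and Benjamini-Hochberg adjustment across every tested gene. The same model was also fitted with the library number as a block. The labels give the numbers 1, 2 and 3 to both groups without saying what they mark, and the pairing rests on the correlations of deviations given in the report. Common biological coefficients of variation were 0.315 without and 0.104 with the block, at 4 and 2 residual degrees of freedom. Alternatives were DESeq2 size factors, library totals, other filters, DESeq2 1.42.0, limma-voom (limma 3.58.1), a GC correction in 20 bins (15332 genes) and left-out libraries or pairs. Exonic lengths and coordinates came from GENCODE vM21 (GRCm38), matched by symbol for 23376 listed genes. Tests were tested on simulated data.

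The 10 genes and the lists were chosen with earlier results of these data known. Named beside them were Prrc2b, up to 4 genes of each list with the smallest blocked p, all called list genes, and called endothelial, astrocyte, pericyte and neuron markers (the last 2 kinds chosen after their values were seen), of which 1 list gene is not reported here.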

Additional observations from a re-analysis of the deposited data

Results flagged for a closer look

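Of the read pairs in no gene count, 3 classes had larger shares in each of the knockout libraries than in any control library. Pairs in no gene made up 20.8% in knockout and 19.7% in control libraries on average, pairs of low alignment quality 3.83% and 3.11%, and unaligned pairs 1.25% and 1.03%, in the same order. Their part in the differences of the 10 genes was not tested. With 3 libraries in a group, single libraries far from the others were not tested for.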

How the results depend on the processing

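With genotype alone edgeR called 0 genes in every setting run and limma-voom called 0, DESeq2 called 20 genes, and the replicate block in edgeR gave 604 genes and 1 of the 10 BMP and Id genes. With the replicate block the count was 1034 without a filter on low counts, and 174 to 521 with a pair left out, lowest without pair 3. Of the 10 genes 0 were called with library totals and 0 with a mean of at least 5 CPM. With a pair left out 0 or 1 was called, the 1 being Bmp4 without pair 2, its pair of opposite direction. Id3 changed sign between near-zero values, at -0.06 with genotype alone, 0.0093 with limma-voom and 0.0058 with the block, and at -0.043 with limma-voom and the block and -0.019 with the block but without pair 2. With a library left out, log2 fold changes ran from -0.62 to 0.43 for Id1, -0.26 to 0.033 for Id2, -0.36 to 0.48 for Id3, -0.35 to -0.11 for Id4, -0.24 to 1.06 for Smad6, -0.23 to 0.050 for Smad7, -0.073 to 0.16 for Bmpr1a and -0.57 to 0.81 for Bmp4. With the block and a pair left out they ran from -0.27 to 0.011 for Id1, -0.13 to 0.18 for Id3, 0.10 to 0.96 for Smad6, -0.20 to 0.84 for Bmp4 and -0.37 to 0.13 for Atoh8. The cause of these changes was not tested. Leaving out a library or pair leaves fewer samples, so a lost call there does not show a smaller difference. Smad6 had no value under the filter of 5 CPM, and depth limits it most, at 26 to 178 counts.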
